A study of Mus musculus with 12 samples.

Results

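The genes of the NRF2 antioxidant response were examined in tumors grown from CT-26 cells in mice that swam and mice that did not. The 10 genes were Nfe2l2, Keap1, Hmox1, Nqo1, Gclc, Gclm, Srxn1, Txnrd1, Prdx1 and Sod2. They were chosen by name, and each name matched 1 Ensembl gene in the GENCODE M21 annotation, out of 30630 genes with a value in all tumors. The gene values were FPKM, fragments scaled to gene length and to the fragments mapped in the library, so that levels of different genes can be set side by side per length.

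CT-26 is a mouse colon carcinoma cell line derived from the BALB/c strain. Male BALB/c mice aged 4 to 6 weeks received CT-26 cells in Matrigel under the skin of the right flank and were then divided into a control group and a swimming group of 10 mice each. Training in the swimming group comprised 2 daily swims on 6 days of each week, lasting 10 min at first and up to 30 min later, and the tumors were taken after 3 weeks. The control group carried the same tumors without the training. RNA of 6 tumors per group was depleted of ribosomal RNA and sequenced, with 1 tumor per library. The model rests on 1 cell line at a site under the skin, and each library holds the RNA of all cells of the tumor, so fewer cells of a type and less RNA per cell cannot be told apart.

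NRF2, the protein of Nfe2l2, is a transcription factor that is held at a low level by KEAP1, an adaptor that hands it to a CUL3 ubiquitin ligase for degradation. Oxidants and electrophiles modify cysteines of KEAP1, upon which NRF2 escapes degradation, enters the nucleus, pairs with small MAF proteins and binds the antioxidant response element in front of its target genes. BACH1, a heme-sensing repressor, competes for the same element. The targets make glutathione, reduce thioredoxin and peroxides, supply NADPH, break down heme and store iron. NRF2 is mainly controlled at the level of its protein, which was not measured here. In tumors, both the cancer cells and infiltrating macrophages express these genes.

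NRF2 binds its targets at the antioxidant response element. The promoters were therefore searched for its core, TGACNNNGC, and for the related AP-1 element, TGANTCA, on both strands. RefSeq promoter windows on GRCm38.p6, from 250 bases before to 50 bases after the start, covered 8 of the 10 genes, all but Hmox1 and Gclc. These 8 genes had 10 windows, 3 of them of Txnrd1. The core was found in 5 of the 8 genes, Nfe2l2, Gclm, Srxn1, Prdx1 and the second window of Txnrd1. In Srxn1 it lay at 28, after the start. Of all 32851 windows 12.4% held the core, a share per window and not per gene. The genes were named as NRF2 genes beforehand, so their count is not a test. AP-1 matches were found in Srxn1 and Prdx1, and in 7.81% of all windows. A match to these letters is a description and not a site shown to be bound. The 250 bases before the start are shown for 4 genes to which the results return. Prdx1 (chr4:116685349-116685598, plus strand) was the most highly expressed of the 10, and its core at -133 shares bases with an AP-1 match at -131. Nfe2l2 (chr2:75704664-75704913, minus strand) has a core at -240 in front of the gene of the factor itself. Gclm (chr3:122245307-122245556, plus strand) has a core at -134, and Nqo1 (chr8:107403206-107403455, minus strand), whose level is set against that of Gclm below, held no match in this window. Matches are in capitals, sequences run 5′ to 3′ along the gene, and positions count from the start to the leftmost base of the match.
Prdx1: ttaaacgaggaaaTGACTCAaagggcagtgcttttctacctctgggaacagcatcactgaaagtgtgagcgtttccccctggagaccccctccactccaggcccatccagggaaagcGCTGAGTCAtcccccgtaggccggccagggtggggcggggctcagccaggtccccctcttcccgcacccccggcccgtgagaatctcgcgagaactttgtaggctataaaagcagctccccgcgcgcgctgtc
Nfe2l2: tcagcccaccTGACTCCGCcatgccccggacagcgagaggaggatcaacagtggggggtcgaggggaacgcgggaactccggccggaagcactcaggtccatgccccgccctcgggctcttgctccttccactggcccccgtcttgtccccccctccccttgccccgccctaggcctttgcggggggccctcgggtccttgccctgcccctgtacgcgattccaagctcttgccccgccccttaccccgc
Gclm: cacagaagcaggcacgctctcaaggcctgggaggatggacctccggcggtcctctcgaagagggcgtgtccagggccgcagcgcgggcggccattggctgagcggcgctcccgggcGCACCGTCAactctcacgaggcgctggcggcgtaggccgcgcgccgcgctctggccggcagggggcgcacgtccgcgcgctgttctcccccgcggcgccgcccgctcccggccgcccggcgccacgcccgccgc
Nqo1: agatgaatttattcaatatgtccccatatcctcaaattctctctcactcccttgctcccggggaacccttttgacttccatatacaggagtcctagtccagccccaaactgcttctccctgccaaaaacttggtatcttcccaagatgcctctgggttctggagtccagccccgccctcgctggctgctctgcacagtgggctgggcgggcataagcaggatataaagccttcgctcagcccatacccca

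The libraries were alike in extent, with 22293 to 23974 genes above 0 per tumor. The files hold no read totals, but the most frequent step between low values put the depth of control tumor 2 at 0.695 and that of the other tumors at 0.874 to 0.969 of control tumor 1. Of the 30630 genes, 19018 reached 0.1 FPKM in at least 6 tumors and were tested, among them all 10 NRF2 genes. Comparisons of single genes between the groups used limma on log2(FPKM + 1), for some genes beside an exact permutation test. Ratios and correlations were tested by permutation only. Among the 19018 genes, 1058 (5.56%) had an unadjusted p below 0.05 and 0 (0%) passed after Benjamini-Hochberg adjustment. Higher values in the swimming group made up 591 of these calls (3.11% of the genes tested) and lower values 467 (2.46%). The tumors expressed the CT-26 marker Krt20 at 99.8 to 194 FPKM, whereas Vil1 stayed under 0.1 FPKM in every tumor and Epcam reached at most 0.177 FPKM. Of 10 T and NK cell markers 5 were higher in the swimming group at an unadjusted p below 0.05, and their summed level ran from 7.38 to 17.7 FPKM in the control and from 10.9 to 30.3 FPKM in the swimming group. Of 12 macrophage markers 0 passed that threshold in limma, with summed levels of 1500 to 2120 and 1570 to 2040 FPKM, and 0 of the 12 passed after adjustment. Across the other 9 marker lists 1 gene, the plasma cell gene Jchain, was higher and 0 were lower at an unadjusted limma p below 0.05, and 0 passed after adjustment. The part of these cells in the values that follow was not tested.

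By level, Prdx1 stood first with a mean of 97.5 FPKM over the 12 tumors, and 2.77% of the genes tested had a higher mean. Nfe2l2 at 39.1 and Hmox1 at 37.9 FPKM followed. They could not be ordered, since Nfe2l2 was the higher of the pair in 7 of 12 tumors. Txnrd1 had a mean of 26.0 and Srxn1 of 24.9 FPKM, with Txnrd1 the higher in 10 of 12 tumors. Sod2 (18.1), Gclc (16.6) and Keap1 (15.6 FPKM) formed a further group with overlapping ranges. Gclm at 8.25 FPKM lay below all of these in every tumor. Nqo1 was lowest in every tumor with a mean of 1.33 FPKM, and 63.5% of the genes tested had a higher mean. The ranges over the 12 tumors did not overlap between Prdx1 and Nfe2l2, between Srxn1 and Sod2, between Keap1 and Gclm, or between Gclm and Nqo1.

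**Figure D1:**
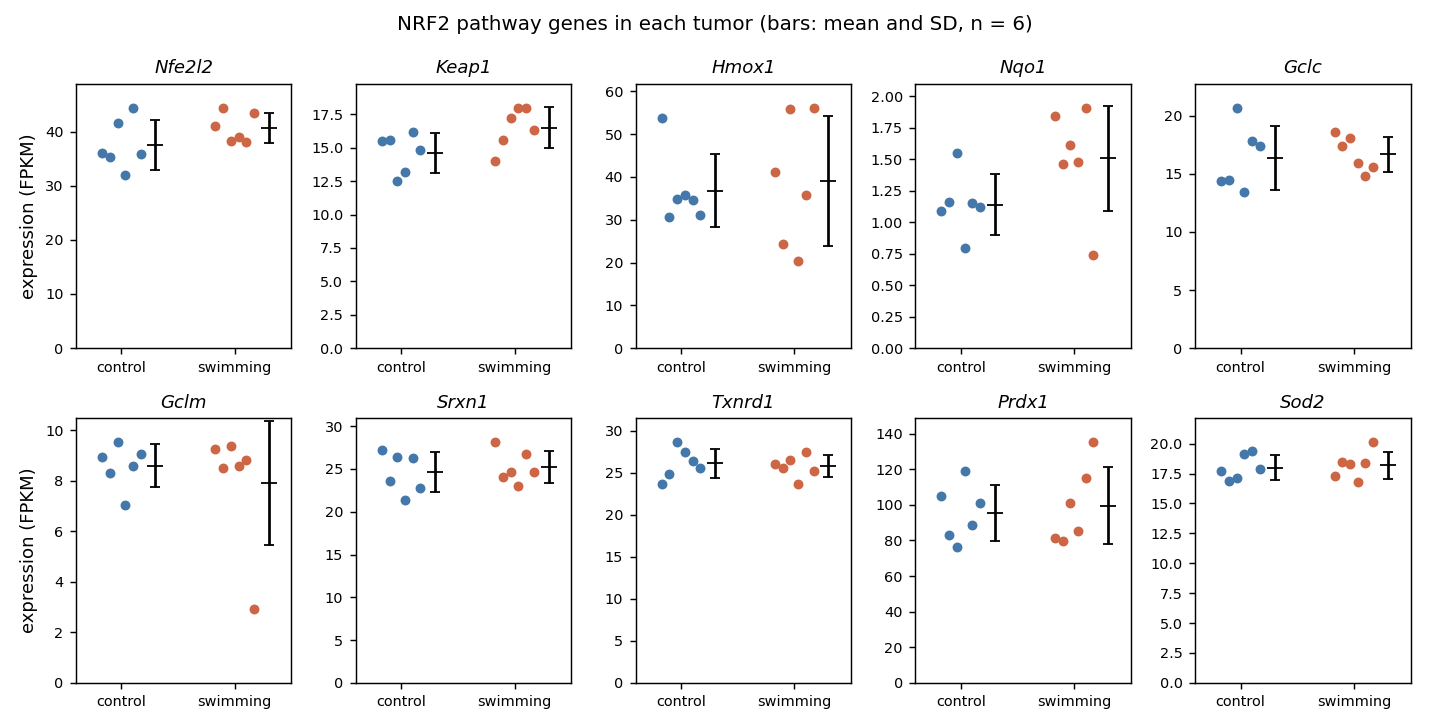
Expression (FPKM, linear axes starting at 0) of the 10 genes in the 6 control and 6 swimming tumors; each point is 1 tumor and the bar gives the mean and SD of its group. The groups overlap for all 10 genes, and single tumors stand apart for Gclm (swimming tumor 6, 2.94 FPKM) and Hmox1 (control tumor 1, 53.9 FPKM).

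The first question was whether the factor and its inhibitor differed between the groups. Nfe2l2, on chromosome 2 (75675513 to 75704641, minus strand, GRCm38, ENSMUSG00000015839), ranged from 31.9 to 44.4 FPKM in the control group with a median of 36.0, and from 38.0 to 44.4 FPKM in the swimming group with a median of 40.0. All 6 swimming tumors lay above the control median, and 4 control tumors lay below the lowest swimming tumor. The means were 37.5 ± 4.6 and 40.6 ± 2.73 FPKM (SD, n = 6 each). The log2 fold change was 0.12 (SE 0.08, 95% confidence interval -0.04 to 0.28), with an exact permutation p (two-sided, over all divisions of the tumors into equal groups) of 0.173 and a limma adjusted p of 0.899. Without control tumor 5, the highest control tumor, the difference was 0.17 with an unadjusted limma p of 0.0279. In that fit 0 of all genes tested passed after adjustment. Nfe2l2 was thus not distinguished between the groups with all tumors included.

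Keap1, on chromosome 9 (21229730 to 21239361, minus strand, ENSMUSG00000003308), was 12.5 to 16.2 FPKM in the control group (median 15.1) and 14.0 to 18.0 FPKM in the swimming group (median 16.7). In the swimming group 4 tumors were above every control tumor and 1 was below the control median. The means were 14.6 ± 1.47 and 16.5 ± 1.55 FPKM (SD, n = 6 each). The log2 fold change of 0.16 (SE 0.08) had an unadjusted limma p of 0.04997, an adjusted p of 0.889 and an exact permutation p of 0.0628. Keap1 was the only 1 of the 10 genes under an unadjusted p of 0.05, against 5.56% of all genes, and 6 of the 9 alternative settings moved it above that value. Leaving out control tumor 3, 4 or 6 or any of swimming tumors 2 to 6 did so too, with unadjusted limma p of 0.0513 to 0.117. Exons of Keap1 overlap those of the antisense gene Gm16754, which was listed at 1.17 to 3.28 FPKM, and the library kit as named does not mark strand.

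Since KEAP1 acts on NRF2, the ratio of both mRNAs within each tumor was also compared. The ratio of Nfe2l2 to Keap1 was 2.26 to 3.33 in the control group (median 2.41) and 2.12 to 2.93 in the swimming group (median 2.44). The groups overlapped almost completely. The mean log2 ratio differed by -0.05, with an exact permutation p of 0.68 before and after adjustment over the 3 ratios examined.

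Glutathione synthesis starts with glutamate-cysteine ligase, an enzyme of a catalytic subunit (Gclc) and a modifier subunit (Gclm). Gclc, on chromosome 9 (77754535 to 77794485, plus strand, ENSMUSG00000032350), was 13.4 to 20.7 FPKM in the control and 14.8 to 18.6 FPKM in the swimming group. The swimming tumors lay within the control range, with a log2 fold change of 0.04 (SE 0.10, 95% confidence interval -0.17 to 0.25). Its exact permutation p was 0.701 and its limma adjusted p was 0.978. Gclm, on chromosome 3 (122245557 to 122270732, plus strand, ENSMUSG00000028124), was 7.06 to 9.52 FPKM in the control group (median 8.78), and 9.25, 8.50, 9.37, 8.60, 8.83 and 2.94 FPKM in swimming tumors 1 to 6. The other 5 swimming tumors were within the control range and swimming tumor 6 held 33.3% of the median of the other 11 tumors. The log2 fold change of -0.17 (SE 0.20, 95% confidence interval -0.61 to 0.27) had an exact permutation p of 0.749 and a limma adjusted p of 0.944. It became 0.05 without swimming tumor 6.

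The Gclc to Gclm ratio was 1.6 to 2.17 in the control group and 1.68 to 2.04 in 5 swimming tumors, and 5.31 in swimming tumor 6. The groups did not differ in it (log2 difference 0.25, exact permutation p = 0.478, 0.68 adjusted over 3 ratios). Some Gclm transcripts carry an exon that overlaps the Ppia-like pseudogene Gm6061, and 244 of its bases are identical to Gm10123, another such pseudogene with a mean of 409 FPKM. Gm6061 was listed at 0 in 11 tumors and at 0.158 FPKM in swimming tumor 6, the tumor with the low Gclm value. Exons of Gclm also overlap those of the antisense gene Gm17494, which was listed at 1.6 to 11.9 FPKM, highest in control tumor 1. Reads that match several of these genes could have been divided in different ways, so the Gclm values are uncertain, and the part of this sharing in the low value was not tested.

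Txnrd1, thioredoxin reductase of the cytosol, on chromosome 10 (82833951 to 82897712, plus strand, ENSMUSG00000020250), was 23.7 to 28.6 FPKM in the control and 23.7 to 27.5 FPKM in the swimming group. Srxn1, sulfiredoxin, which restores overoxidized peroxiredoxins, on chromosome 2 (152105516 to 152111376, plus strand, ENSMUSG00000032802), was 21.4 to 27.2 and 23.0 to 28.1 FPKM. For both, 2 of 6 swimming tumors exceeded the control median. The log2 fold change of Txnrd1 was -0.02 (95% confidence interval -0.13 to 0.09) and that of Srxn1 was 0.03 (-0.11 to 0.18), with limma adjusted p of 0.979 and 0.971. The ratio of Txnrd1 to its substrate Txn1 was 0.0633 to 0.078 in the control and 0.0511 to 0.074 in the swimming group, with an exact permutation p of 0.201 (0.604 adjusted over 3 ratios).

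Prdx1, a peroxiredoxin that reduces hydrogen peroxide, on chromosome 4 (116685544 to 116700822, plus strand, ENSMUSG00000028691), was 76.2 to 119 FPKM in the control and 79.6 to 135 FPKM in the swimming group. Swimming tumor 6 was highest and control tumor 3 lowest, and 3 of 6 swimming tumors exceeded the control median. The means of 95.5 ± 15.7 and 99.5 ± 21.8 FPKM (SD, n = 6 each) gave a log2 fold change of 0.05 (SE 0.14) with an exact permutation p of 0.777 and a limma adjusted p of 0.979. The 2 pseudogenes with near-identical sequence summed to at most 6.88% of Prdx1. Sod2, the manganese superoxide dismutase of mitochondria, on chromosome 17 (13006846 to 13040063, plus strand, ENSMUSG00000006818), was 16.9 to 19.4 and 16.8 to 20.1 FPKM. Its log2 fold change of 0.02 (95% confidence interval -0.10 to 0.13) was within the spread of either group, with a limma adjusted p of 0.979. A Sod2 transcript shares 3110 bases at 98.264% identity with Rps6ka2, which was listed at 4.4 to 8.7 FPKM, so the division of reads between them is uncertain.

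Hmox1, heme oxygenase 1, which breaks down heme to biliverdin, iron and carbon monoxide, lies on chromosome 8 (75093621 to 75100589, plus strand, ENSMUSG00000005413). Control tumors 1 to 6 held 53.9, 30.7, 34.8, 35.8, 34.7 and 31.2 FPKM, and swimming tumors 1 to 6 held 41.1, 24.3, 56.0, 20.3, 35.9 and 56.2 FPKM. The swimming group contained both the lowest and the highest values. Means were close at 36.8 ± 8.6 and 39.0 ± 15.2 FPKM (SD, n = 6 each). The log2 fold change of 0.01 (SE 0.24, 95% confidence interval -0.51 to 0.52) had an exact permutation p of 0.989 and a limma adjusted p of 0.997. Hmox1 was the most variable of the 8 genes with a mean of at least 10 FPKM. Its coefficient of variation over the 12 tumors was 31.3%, and 95.7% of the 5358 genes at that level had a lower one. Txnrd1 (5.72%) and Sod2 (5.73%) were among the least variable, below the median of 9.38% of those genes.

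Nqo1, a quinone reductase often used as a readout of NRF2, lies on chromosome 8 (107388225 to 107403206, minus strand, ENSMUSG00000003849). It was 1.09, 1.16, 1.55, 0.794, 1.15 and 1.12 FPKM in control tumors 1 to 6, and 1.84, 1.46, 1.61, 1.48, 1.91 and 0.743 FPKM in swimming tumors 1 to 6. Swimming tumors 1, 3 and 5 were above every control tumor, swimming tumors 2 and 4 were above all but control tumor 3, and swimming tumor 6 was the lowest of all. The means were 1.14 ± 0.241 and 1.51 ± 0.417 FPKM (SD, n = 6 each). The log2 fold change was 0.21 (SE 0.12, 95% confidence interval -0.05 to 0.48), with an exact permutation p of 0.141 and a limma adjusted p of 0.896. At this low level a pseudocount of 1 understates the change, which was 0.36 (-0.12 to 0.84) with a pseudocount of 0.01. Without swimming tumor 6 the difference was 0.31 with an unadjusted limma p of 0.00461, but 0 of all genes tested passed after adjustment. The size and the unadjusted p of the Nqo1 difference thus depended on whether that tumor was included.

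**Figure D2:**
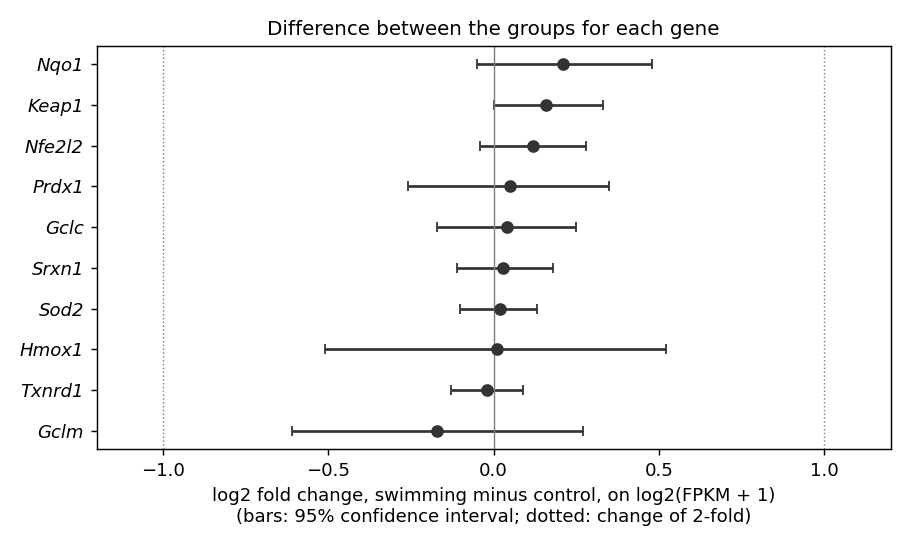
Log2 fold change of the swimming group against the control group on log2(FPKM + 1) for the 10 genes, with the 95% confidence interval from limma as bars and a change of 2-fold as dotted lines. Estimates run from -0.17 (Gclm) to 0.21 (Nqo1), and no interval reaches a change of 2-fold.

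Over the 10 genes the log2 fold change was above 0 in 8, against 51.7% of all genes tested, and its median was 0.04 against 0.00. In absolute size the median was 0.04 for the 10 genes and 0.06 for all genes. The groups overlapped for all 10 genes, whereas they did not overlap for 0.147% of all genes. The interval of every one of the 10 genes lay inside a change of 2-fold on this scale, the widest being that of Hmox1 (0.705-fold to 1.44-fold) and Gclm (0.654-fold to 1.21-fold). The interval of Prdx1 was 0.837-fold to 1.27-fold and that of Nqo1 0.967-fold to 1.39-fold. With the smaller pseudocount given above for Nqo1, its interval was 0.917-fold to 1.8-fold. For each of the 10 genes, changes inside its interval cannot be told from none after adjustment (limma adjusted p of 0.889 or more).

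Whether the 10 genes varied together from tumor to tumor was examined over their 45 pairs. Pearson's r had a median of 0.11 and ranged from -0.65 to 0.68, with 26 pairs above 0. Over all 81772866 pairs of the 12789 genes with a mean of at least 1 FPKM the median r was 0.02, with quartiles of -0.23 and 0.26. Of the 45 pairs 6 had an unadjusted permutation p below 0.05 and 1 an adjusted one.

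The pair with the smallest p was Nqo1 and Gclm (r = 0.66, permutation p = 0.00103, 0.0463 adjusted over the 45 pairs; Spearman's rho = 0.62, permutation p = 0.0345, 0.415 adjusted). Within the groups r was 0.87 (control) and 0.94 (swimming). Without control tumor 4 and swimming tumor 6, the tumors farthest from the Nqo1 median and the lowest in both genes, r was 0.38. Without swimming tumor 6 alone r was 0.68, for which no p is given, and with values centred on the group means 0.89. The Gclm value of swimming tumor 6 is uncertain, as given above. After quantile normalization 0 of the 45 pairs had an adjusted permutation p below 0.05. Nfe2l2 and Gclc gave r = 0.64 (permutation p = 0.0241, 0.217 adjusted), with rho = 0.59 (permutation p = 0.0451, 0.415 adjusted) and r = 0.47 without the 2 farthest tumors. Within the groups it was 0.80 in the control and 0.17 in the swimming group. Prdx1 and Sod2 gave r = 0.68 (permutation p = 0.0162, 0.182 adjusted), with rho = 0.57 (permutation p = 0.0553, 0.415 adjusted), and r = 0.37 without control tumor 4 and swimming tumor 6.

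The lowest values were those of Gclm with Prdx1 and Sod2. Gclm and Prdx1 had r = -0.65 (permutation p = 0.0103, 0.155 adjusted; rho = -0.41, permutation p = 0.191, 0.575 adjusted), and Gclm and Sod2 had r = -0.64 (permutation p = 0.00858, 0.155 adjusted; rho = -0.48, permutation p = 0.114, 0.552 adjusted). Without swimming tumor 6 alone r was -0.40 and -0.42. Without both control tumor 4 and swimming tumor 6 it was 0.10 and -0.10, so neither held without these 2 tumors. Both subunits of glutamate-cysteine ligase gave r = 0.31 over all 12 tumors (permutation p = 0.333, 0.75 adjusted; rho = 0.69, permutation p = 0.0176, 0.415 adjusted) and r = 0.73 without swimming tumor 6.

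**Figure D3:**
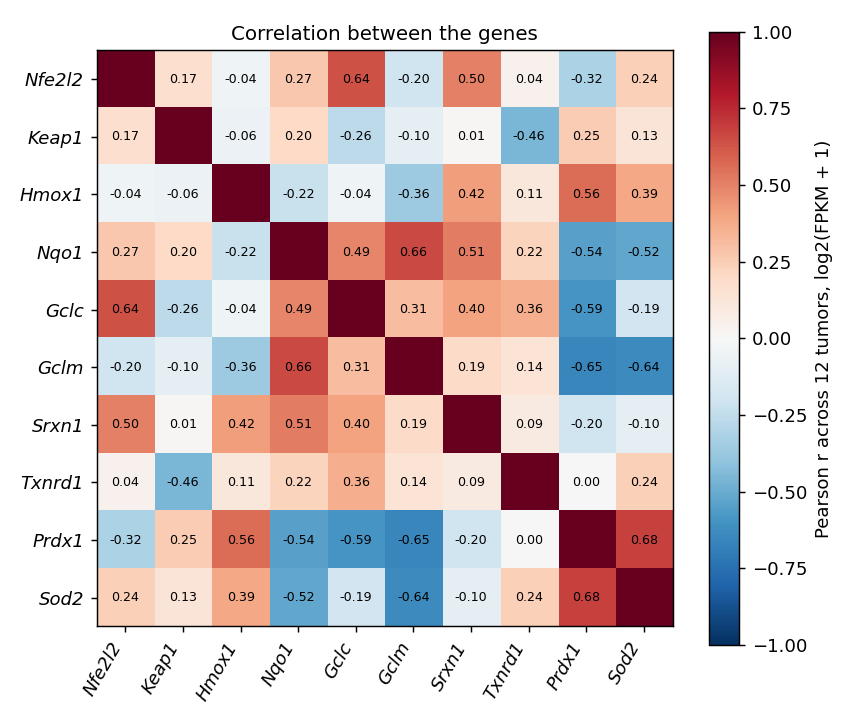
Pearson's r of log2(FPKM + 1) across the 12 tumors for each pair of the 10 genes, from -1 (blue) to 1 (red). Nqo1 and Gclm (0.66) and Prdx1 and Sod2 (0.68) have the highest values, and Gclm with Prdx1 (-0.65) and Sod2 (-0.64) the lowest.

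Each of the 10 genes was also set against the mean score of 10 cell type marker lists, which gave 100 relations, 8 of them with an unadjusted permutation p below 0.05. The only one with an adjusted permutation p below 0.05 was that of Gclc with the macrophage genes (r = -0.85, permutation p = 0.00041, 0.041 adjusted over 100; rho = -0.77, permutation p = 0.00489, 0.399 adjusted). Gclc was highest, 20.7 FPKM, in control tumor 3, where the macrophage score was lowest, and lowest, 13.4 FPKM, in control tumor 4. The value was -0.94 within the control and -0.63 within the swimming group, and it stayed at -0.80 without control tumor 3 and swimming tumor 5. Of the 12 macrophage genes 11 ran opposite to Gclc, led by the complement genes C1qb (r = -0.84) and C1qc (r = -0.82), while the monocyte receptor gene Cd14 did not (r = 0.53). Prdx1 ran the other way with the same score (r = 0.59, permutation p = 0.0413, 0.576 adjusted; rho = 0.59, permutation p = 0.0487, 0.487 adjusted). For Prdx1 r was 0.39 without the 2 farthest tumors. Negative values were found for the CT-26 epithelial markers with Nqo1 (r = -0.67, permutation p = 0.00971, 0.485 adjusted), Nfe2l2 (r = -0.62, permutation p = 0.0259, 0.576 adjusted) and Srxn1 (r = -0.61, permutation p = 0.0254, 0.576 adjusted). Spearman's rho was -0.64, -0.28 and -0.48 (permutation p = 0.0267, 0.379 and 0.122, adjusted 0.399, 0.761 and 0.761), and without the 2 farthest tumors, control tumor 4 and swimming tumor 5, r was -0.46, -0.39 and -0.17. This epithelial score rests on the 5 tested genes of 8 listed. Among them Krt8 ran from 1.86 to 129 FPKM, highest in control tumor 4, where the score was also highest (0.99). Krt19 and Cdh1 reached at most 0.757 and 0.43 FPKM. The other 3 relations were those of Hmox1 with B and plasma cell markers (r = 0.62, rho = 0.64) and with neutrophil markers (r = 0.58, rho = 0.66), and of Nfe2l2 with skeletal muscle markers (r = -0.61, rho = -0.70), each with an adjusted permutation p of 0.576 for r and 0.399 for rho. This family of relations was added after the values had been seen.

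**Figure D4:**
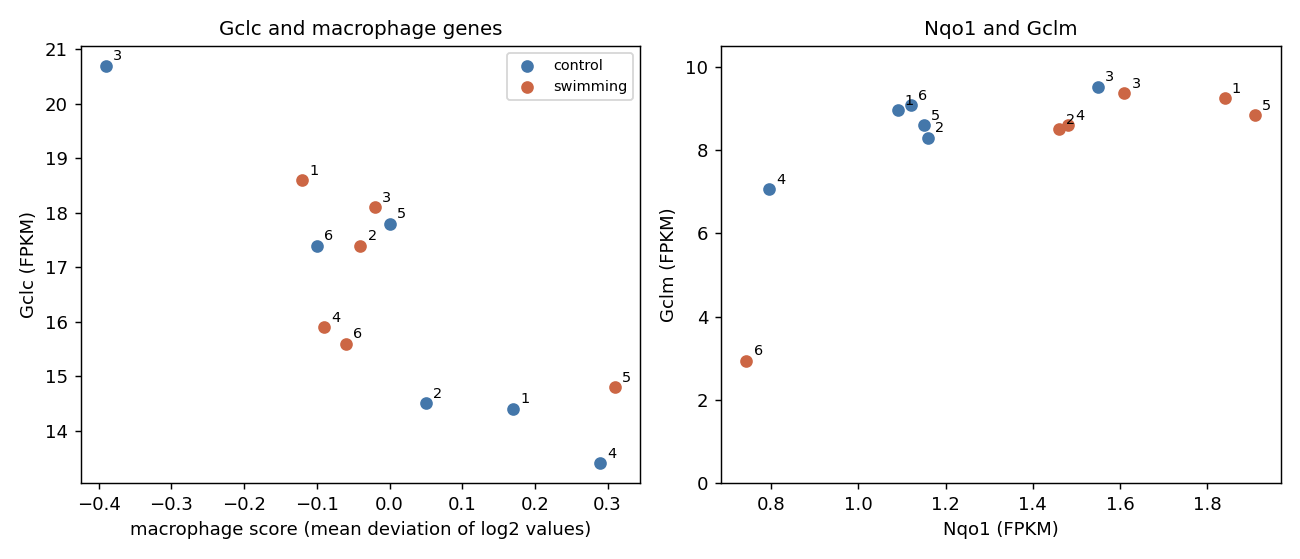
Left, Gclc (FPKM, axis not starting at 0) against the macrophage score, the mean deviation of 12 macrophage genes from their mean on the log2 scale; right, Gclm against Nqo1 (FPKM). Points are tumors, coloured by group and numbered by replicate; Gclc falls with the score (r = -0.85), and swimming tumor 6 is lowest in both Gclm and Nqo1.

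Other genes of the pathway, and genes of peroxide removal, oxidant production and NF-kB signaling beside it, were read from 8 lists. These held 89 genes, of which 86 were tested. At an unadjusted limma p below 0.05, 2 were higher and 5 lower in the swimming group (8.14%, against 5.56% of all genes), and 0 passed after adjustment, each of the 7 having an adjusted p of 0.889. The calls of Tnf and Txn2 held without any 1 tumor (largest unadjusted limma p 0.0123 and 0.0447). That of Akr1b8 was lost without control tumor 4 or swimming tumor 5 (largest p 0.0531), that of Bach1 without control tumor 1, 3 or 5 or swimming tumor 4 (0.0607), and that of Mafg without control tumor 1, 4 or 6 or swimming tumor 4 or 5 (0.0808). Prdx6 and Tnfaip2 each lost theirs when any 1 of 8 tumors was left out, with limma p of up to 0.11 and 0.0975. Other settings also took unadjusted limma p above 0.05, to 0.0521 for Mafg with quantile normalization, to 0.0517 to 0.0758 for Tnfaip2 with quantile normalization, median scaling or the replicate block, and to 0.0509 to 0.0574 for Prdx6 with a pseudocount of 0.01, no filter, a filter of 1 FPKM or a variance model without trend. In the 4 lists of NRF2 targets, 0 of 33 tested genes were higher and 1 was lower (3.03%).

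Among 11 regulators of NRF2 the median log2 fold change was -0.08. At an unadjusted limma p below 0.05, 1 gene was higher and 1 lower, against 3.11% and 2.46% of all genes. After adjustment 0 passed. Bach1, the repressor at the antioxidant response element, was 11.2 ± 1.15 FPKM in the control and 12.6 ± 0.61 FPKM in the swimming group (SD, n = 6 each), with all 6 swimming tumors above the control median (log2 fold change 0.16, exact permutation p = 0.0368). Mafg, a small MAF partner of NRF2, was 26.9 ± 1.38 and 24.5 ± 1.74 FPKM (SD, n = 6 each), with 0 of 6 swimming tumors above the control median (log2 fold change -0.13, exact permutation p = 0.026). Sqstm1, the selective autophagy receptor p62 that binds KEAP1, was the most highly expressed regulator at 180 FPKM and did not pass (log2 fold change -0.22, exact permutation p = 0.234).

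The target lists showed little difference. Of 10 tested glutathione genes (median -0.03), 6 NADPH-supplying genes (median 0.04) and 7 heme and iron genes (median -0.01), 0 passed in either direction at an unadjusted or adjusted limma p below 0.05. Their most highly expressed genes were Gstp1, a glutathione transferase (220 FPKM), Taldo1, transaldolase of the pentose phosphate pathway (45.5 FPKM), and Fth1, the ferritin heavy chain (1730 FPKM). Of 10 detoxification genes (median 0.08) Akr1b8, an aldo-keto reductase, was lower, 47.4 ± 3.94 against 42.0 ± 3.67 FPKM (SD, n = 6 each, log2 fold change -0.17, exact permutation p = 0.0303). Txn1, thioredoxin, led that list at 390 FPKM.

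Among 18 enzymes that remove peroxide and superoxide (median -0.03), 2 were lower at an unadjusted limma p below 0.05, against 2.46% of all genes. After adjustment 0 passed. Txn2, the thioredoxin of mitochondria, was 15.9 ± 1.28 in the control and 13.8 ± 1.37 FPKM in the swimming group (SD, n = 6 each, log2 fold change -0.19, exact permutation p = 0.026), with 0 of 6 swimming tumors above the control median. Prdx6, a peroxiredoxin, was 30.7 ± 4.0 and 27.0 ± 2.15 FPKM (SD, n = 6 each, log2 fold change -0.17, unadjusted limma p = 0.0496, exact permutation p = 0.0649). Sod1, superoxide dismutase of the cytosol, led this list at 259 FPKM with a log2 fold change of -0.02.

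On the side of oxidant production and inflammation, 8 genes of oxidant production were tested, most but not all of them of NADPH oxidases. Of these 8, 0 passed at an unadjusted or adjusted limma p below 0.05. The mean was higher in the swimming group for 7 (median 0.15), against 51.7% of all genes tested. Cyba, the shared membrane subunit p22phox, led them at 115 FPKM with a log2 fold change of -0.02. Of 16 NF-kB target genes (median 0.08), Tnf, a cytokine made mainly by myeloid and T cells, was 1.11 ± 0.37 in the control and 1.85 ± 0.413 FPKM in the swimming group (SD, n = 6 each), higher in all 6 swimming tumors than the control median (log2 fold change 0.43, exact permutation p = 0.0152). Of the 10 T and NK cell markers 5 were also higher in the swimming group at an unadjusted limma p below 0.05, as given above. After adjustment 0 passed, and the part of these cells in the Tnf value was not tested. Tnfaip2 was lower, 50.6 ± 4.82 against 44.7 ± 4.84 FPKM (SD, n = 6 each, log2 fold change -0.18, unadjusted limma p = 0.0411, exact permutation p = 0.0606), and Nfkb2, a subunit of NF-kB, led the list at 110 FPKM.

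**Figure D5:**
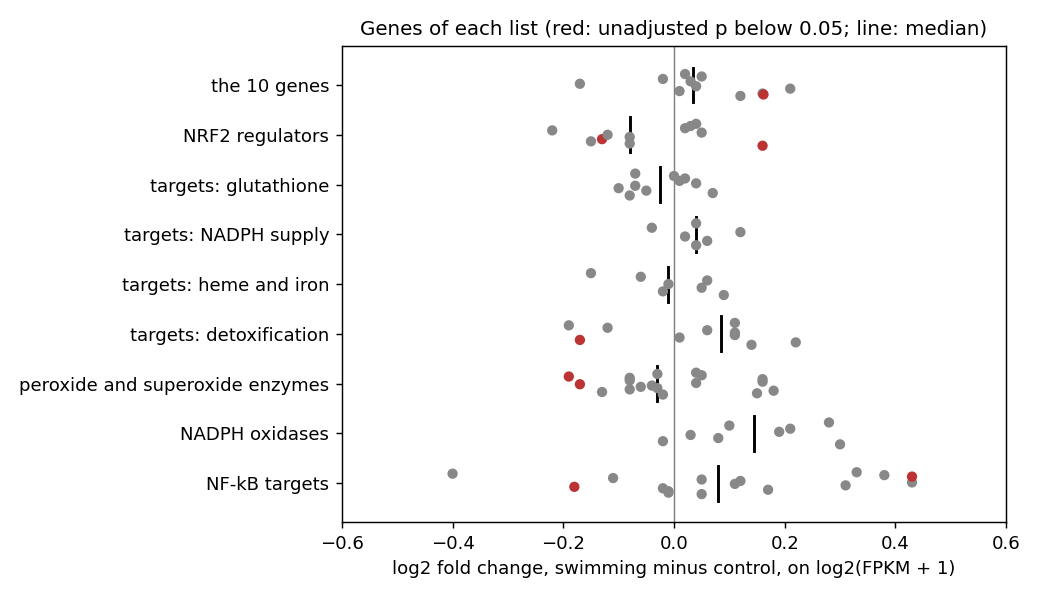
Log2 fold change, swimming against control, on log2(FPKM + 1) for each tested gene of the 10 genes and the 8 pathway lists; red points have an unadjusted limma p below 0.05 and black lines are list medians. The medians lie between -0.08 and 0.15, and 8 of 96 points are red.

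Finally, the genes most like 4 of the 10 across the 12 tumors were taken from the 12762 other tested genes that had both a mean of at least 1 FPKM and a name in the annotation, by Pearson's r of log2(FPKM + 1). For Nfe2l2 they were Ensa (r = 0.90), Sox13 (0.89) and Csrp2 (0.89). For Hmox1 they were Dnm2 (r = 0.84), Cxcl5 (0.81) and Amotl2 (0.79). For Nqo1 they were Rpf1, Anapc5 and Kif3b (each r = 0.91), and for Sod2 D1Ertd622e (r = 0.91), Polr2g (0.90) and Gm12166 (0.88). These are the highest of many values over 12 shared libraries and are given as a description.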

How the data were processed

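Tumor RNA of 12 mice, 6 control and 6 swimming by the labels, was depleted of ribosomal RNA with a NEBNext depletion kit. Libraries were made with a NEBNext Ultra kit, and the paper names CapitalBio as having done the experiments. Per the submitters' processing notes and the methods, reads were mapped with HISAT2 2.0.5, and StringTie 1.3.3 gave the deposited FPKM values, 1 per Ensembl gene and tumor. The methods name a human genome build, the notes also GRCm38, and the identifiers are those of mouse genes. FPKM are relative values and not counts, so no count test was used. Near-identical or overlapping genes share reads, which can move values between them.

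The 12 tables were joined by Ensembl identifier and named with GENCODE M21 (GRCm38). Genes that reached 0.1 FPKM in 6 or more tumors were kept, and log2(FPKM + 1) was fitted with limma 3.58.1 (R 4.3.3, eBayes with trend) without covariates, with Benjamini-Hochberg adjustment over all 19018 genes. A fold change on this scale understates that of low genes. For single genes and ratios, an exact two-sided permutation test enumerated every split of the tumors into 6 and 6 (smallest possible p 0.00216), and correlations were tested with 100000 permutations (scipy 1.17.1). The steps were tested on simulated data. Near-identical transcripts were sought with blastn 2.17.0 (at least 95% over 200 bases). As far as the labels show, each tumor is a separate mouse and replicate numbers are names. The members and lists were chosen with earlier results of these data known. The text names the 10 genes, every pathway list gene at an unadjusted p below 0.05, the most highly expressed gene of each list, and the 3 genes most like each of Nfe2l2, Hmox1, Nqo1 and Sod2. C1qb, C1qc, Cd14 and the overlapping genes were named after their values were seen. Alternatives were other pseudocounts, filters, scalings and variance models, a replicate block and leaving out each tumor.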

Additional observations from a re-analysis of the deposited data

Results flagged for a closer look

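Over 26 groups of 6 values (the 10 genes and 3 ratios in each group), Dixon's criterion at 95% marked 3, where about 1.3 would be marked by chance. Hmox1 in control tumor 1 was 53.9 FPKM, while the other 5 control tumors held 30.7 to 35.8 FPKM. Gclm in swimming tumor 6 was 2.94 FPKM, while the other 5 swimming tumors held 8.50 to 9.37 FPKM. The Gclc to Gclm ratio in swimming tumor 6 was 5.31, which follows from the same Gclm value, while the other 5 swimming tumors had ratios of 1.68 to 2.04. The same tumor had the lowest Nqo1 value (0.743 FPKM) and the highest Prdx1 (135 FPKM) and Sod2 (20.1 FPKM) values of the 12.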

How the results depend on the processing

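Under the 9 alternative settings the direction of each of the 10 genes was kept, and no gene changed sign. The count of the 10 genes with an unadjusted limma p below 0.05, 1 in the report, was 0 with a pseudocount of 0.1 or 0.01, with a filter of 1 FPKM in 6 tumors, with a variance model without trend, with sample weights, and with the replicate block, and 0 to 2 when 1 tumor was left out. The value of 2 came without control tumor 5 (Keap1 and Nfe2l2). The unadjusted p of Keap1 ran from 0.0443 to 0.088 over the settings and from 0.0132 to 0.117 over the left-out tumors. Over all genes, 729 to 1445 had an unadjusted p below 0.05 under the settings and 833 to 1443 without 1 tumor. After adjustment 1 gene passed with sample weights, and 0 to 3 without 1 tumor, 3 without control tumor 4 and 2 without swimming tumor 1. The pairs of genes with an adjusted permutation p below 0.05 numbered 1, and 0 after quantile normalization. Leaving out 1 tumor turned the sign of 7 genes (for Gclm only without swimming tumor 6), whose log2 fold changes then ran from -0.11 to 0.17 (Hmox1), -0.01 to 0.11 (Gclc), -0.23 to 0.05 (Gclm), 0.00 to 0.06 (Srxn1), -0.04 to 0.01 (Txnrd1), -0.05 to 0.11 (Prdx1) and -0.01 to 0.04 (Sod2), and of the log2 ratio of Nfe2l2 to Keap1, from -0.10 to 0.02. The cause was not tested. Same-numbered control and swimming tumors did not deviate together (correlations of -0.32 to 0.00588), so the values gave no sign that the numbers pair the samples. A pairing that leaves no trace in expression would not be seen this way. With the replicate block 892 genes had an unadjusted p below 0.05, and 0 passed after adjustment. The files give no read totals, so the precision of low values such as those of Nqo1 is known only from the spread between tumors.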
